A study of Mus musculus with 4 samples.

Results

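The genes described here are Cflar and 8 other genes of the death receptor pathway, read in the mouse heart with and without exercise and with and without tumor. They are the receptors Fas, Tnfrsf1a and Tnfrsf10b, the adaptor Fadd, the initiator caspase Casp8 and its relative Cflar, the kinases Ripk1 and Ripk3, and Mlkl. They were chosen by symbol, and each of the 9 symbols matched 1 row among the 23282 rows of the heart data. The labels give a postnatal age of 28 days for the CDF1 mice. The methods place about this age at the purchase of the mice and the removal of the hearts after the experiment, so that the hearts may come from older mice. The males were given CT26 murine colorectal carcinoma cells through the tail vein or no tumor cells, and either ran on a treadmill at high intensity or had no exercise. The heart data hold 1 library for each of 4 groups, where E stands for exercise and T for tumor. The normal control is E(−)T(−), with neither. E(+)T(−) had exercise alone and is called normal exercise, E(−)T(+) had tumor alone and is called the cancer control, and cancer exercise, E(+)T(+), had both. All of the groups carry the CDF1 background, and the labels give no other genotype. The tumor model is an injected cell line that spreads through the body, and whether a heart library came from 1 mouse or from pooled mice is not given in the sources used here.

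Death receptors are surface proteins of the tumor necrosis factor (TNF) receptor family with a death domain inside the cell. Upon ligand binding, Fas and TRAIL receptors recruit the adaptor FADD, which brings in caspase-8, and active caspase-8 starts apoptosis. cFLIP, the product of Cflar, resembles caspase-8 and competes with it at FADD, which limits caspase activation. TNF receptor 1, the product of Tnfrsf1a, first signals through RIPK1 towards NF-kB, and when caspase-8 is blocked, RIPK1 and RIPK3 can activate MLKL, which ruptures the membrane in necroptosis. Cflar was among the genes that the study went on to measure by RT-qPCR.

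Since each group had 1 library, no difference between groups has a replicate check, and no p-value is given. A value is the deposited log2 of the normalized read count plus 1, and a change is the difference of 2 such values, a scale on which genes with few reads show less than their full change. Read numbers were recovered as whole reads from these values. Each change has a 95% interval by the Clopper-Pearson method, from the reads of both libraries and the libraries' relative sizes. They cover counting error only and compare the libraries and not the conditions, and reads copied by PCR are not independent molecules. A gene was tested where it had at least 4 normalized reads in 1 or both libraries, and a change was called at 2-fold. The study's methods set the same fold and read count for a DEG, but not whether 1 or both libraries had to reach that count, so that these calls may not be the study's DEGs.

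The libraries held 6595435 to 11545894 reads and 15084 to 15632 genes with reads. All 10 cardiomyocyte markers, such as Myh6 and Tnnt2, had reads in every library, and their summed normalized read counts ran from 458515 to 514689. The cancer exercise library stood apart, with 37.3% of its reads in globin genes against 7.86% to 8.76% in the others. The 12 leukocyte markers summed to 2427 normalized reads in the normal control, 2804 in normal exercise, 5812 in the cancer control, where Cd79a was at 0, and 7464 in cancer exercise. S100a8 and S100a9 made up 108, 70.2, 2809 and 5320 of these, and the 10 other markers summed to 2319, 2734, 3003 and 2143, lowest in cancer exercise. The 8 endothelial and fibroblast markers summed to 29068, 31694, 53358 and 36005 in the same order, of which the 4 endothelial markers made up 5632, 4350, 3837 and 5034. The part of these cells in the values that follow was not tested, and in a bulk tissue fewer cells of a type and less RNA per cell cannot be told apart.

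Cflar was lower in the libraries with tumor than in those without, and the 2 exercise comparisons differed in sign. It had 441 reads in the normal control, 633 in normal exercise, 271 in the cancer control and 191 in cancer exercise. The normalized read counts were 505.4, 572.6, 238.9 and 209.0 in that order, so both libraries with tumor lay below both without.

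Without exercise, Cflar changed by −1.08 on the log2 scale with tumor (95% interval −1.30 to −0.86), which is 2.11-fold lower. With exercise, the change with tumor was −1.45 (−1.70 to −1.22), or 2.73-fold lower. Among all genes tested, 11.6% had a lower change than Cflar in the first of these comparisons and 5.76% in the second. The changes with exercise were small, at 0.18 (0.002 to 0.36) without tumor and −0.19 (−0.47 to 0.08) with tumor. Neither reached 2-fold, the fold that the study set for a DEG. Ordered by level, normal exercise lay above the normal control with an interval that barely left out 0, the normal control lay above the cancer control beyond counting error, and the cancer control and cancer exercise did not differ beyond it. When reads were scaled to library size, Cflar stood at −0.78 for exercise with tumor and −2.17 for tumor with exercise. Under that scaling, the median change of all genes was itself −0.59 and −0.72 in these comparisons and −0.16 for tumor without exercise.

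**Figure D1:**
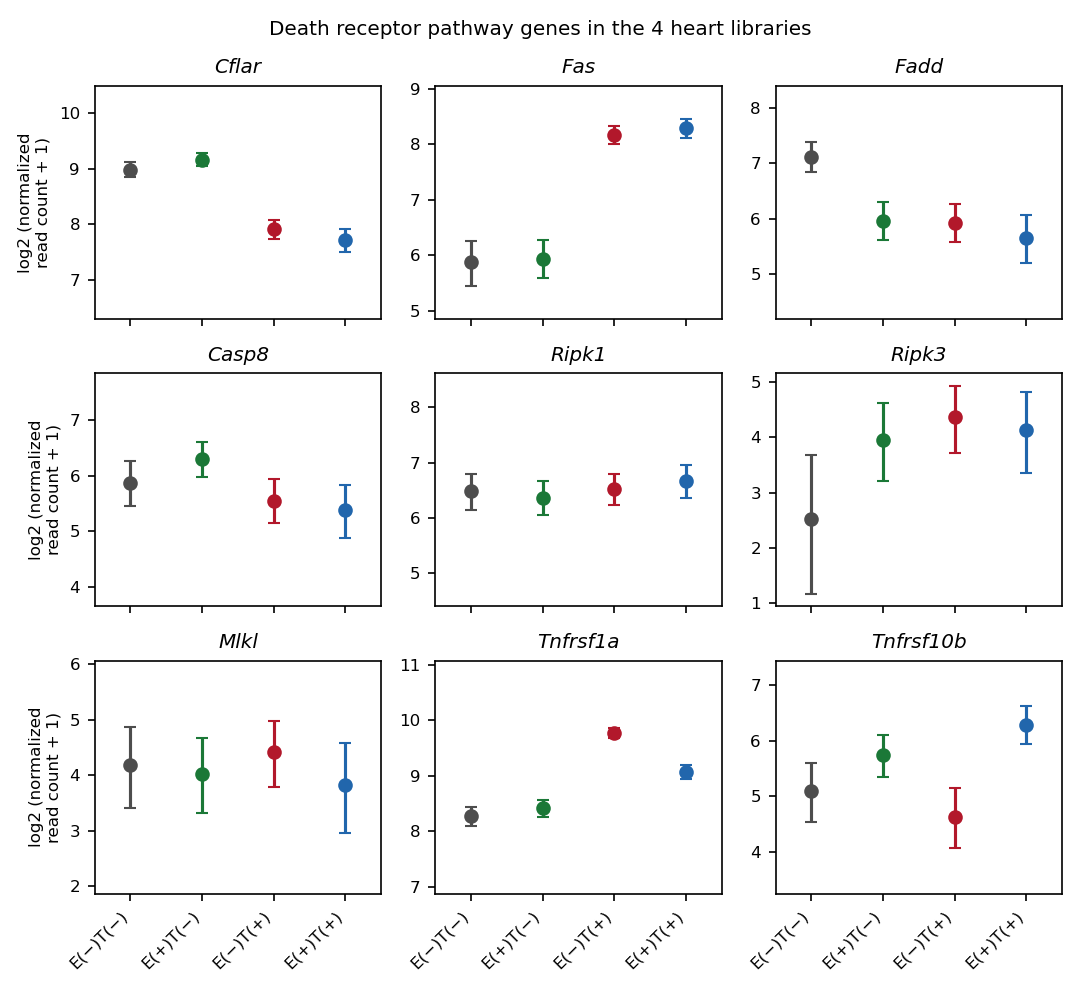
Levels of the 9 genes in the 4 heart libraries, as log2 of the normalized read count plus 1. Each point is 1 library, the bars are exact 95% Poisson intervals of its reads, and every panel spans the same range of log2 units. Cflar lies lower in the 2 libraries with tumor (7.91 and 7.71, against 8.98 and 9.16), and Fas lies higher there (8.17 and 8.29, against 5.87 and 5.94).

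Of the receptors, Fas and Tnfrsf1a were higher in the libraries with tumor, except that Tnfrsf1a in exercised mice was not so under library size scaling, whereas Tnfrsf10b was highest in the library with both tumor and exercise. Values under that scaling, here and below, stand beside its median changes over all genes. These were −0.72 for tumor with exercise, −0.59 for exercise with tumor and −0.16 for tumor without exercise. When genes over 1% of a library were left out of the library size, the medians were −0.18, −0.08 and −0.16 in that order. Fas, the receptor of Fas ligand, had 50 reads in the normal control, 67 in normal exercise, 325 in the cancer control and 286 in cancer exercise, so that both libraries with tumor lay above both without. Its change with tumor was 2.30 (1.89 to 2.78) without exercise, or 4.91-fold, and 2.35 (1.98 to 2.77) with exercise, or 5.10-fold. Of all genes tested, 95.3% and 95.7% had lower changes. Its changes with exercise were 0.07 without tumor and 0.12 with tumor, with intervals that included 0, and scaling to library size turned the second to −0.46.

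Tnfrsf1a encodes TNF receptor 1, which most cell types carry. It had 269 reads in the normal control, 377 in normal exercise, 987 in the cancer control and 492 in cancer exercise. The cancer control was the highest and cancer exercise the next, and the libraries without tumor did not differ beyond counting error. The change with tumor was 1.49 (1.30 to 1.70) without exercise, or 2.82-fold, and 0.66 (0.46 to 0.86) with exercise, which was below 2-fold and turned to −0.06 when reads were scaled to library size. Exercise in cancer-bearing mice went with a change of −0.69 (−0.85 to −0.54), and library size scaling took this to −1.28. Without tumor, the change with exercise was 0.14 (−0.08 to 0.38).

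Tnfrsf10b, the mouse receptor for TRAIL, had 29 reads in the normal control, 58 in normal exercise, 27 in the cancer control and 71 in cancer exercise. Both libraries from exercised mice lay above both from mice without exercise. The change with exercise was 1.67 (1.05 to 2.40) in cancer-bearing mice, or 3.18-fold, and 0.64 (−0.01 to 1.35) in normal mice. With tumor it was −0.48 (−1.29 to 0.33) without exercise and 0.55 (0.04 to 1.09) with exercise, and the latter turned to −0.15 under library size scaling. Whether these changes with exercise differ between mice without and with tumor was not tested.

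Fadd was highest in the normal control, and Casp8 changed by less than 2-fold in each comparison. Fadd, which links the receptors to caspase-8, had 120 reads in the normal control, 68 in normal exercise, 68 in the cancer control and 45 in cancer exercise. Its change was −1.15 (−1.61 to −0.72) with exercise in normal mice and −1.18 (−1.65 to −0.76) with tumor without exercise, and both of these share the normal control library. The 3 other libraries did not differ from their neighbours in level beyond counting error. Exercise with tumor gave −0.28 (−0.86 to 0.28) and tumor with exercise −0.31 (−0.90 to 0.24), the latter −1.02 under library size scaling. An antisense gene, Faddos, covers the last 500 bases of Fadd in the annotation and is not among the symbols of the data, so reads of the pair could be told apart only by strand, and whether the counting used strand is not given in the sources used here.

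Casp8 had 50 reads in the normal control, 86 in normal exercise, 52 in the cancer control and 37 in cancer exercise. When the libraries were ordered by level, no neighbours differed beyond counting error. From the highest to the lowest library, that is for tumor with exercise, the change was −0.93 (−1.54 to −0.37). It was past 2-fold with reads scaled to library size, at −1.63, and also when genes over 1% of a library were left out of that size, and it was −0.32 with reads subsampled to the smallest library. The other changes of Casp8 lay between −0.32 and 0.44 with intervals that included 0.

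Of the necroptosis genes, Ripk1 varied least among the 9 genes, and Ripk3 and Mlkl were read at low depth. Ripk1, the kinase shared by the survival and death complexes of TNF receptor 1, had 77, 90, 103 and 92 reads in the normal control, normal exercise, the cancer control and cancer exercise. Its 4 changes ran from −0.12 to 0.30, all with intervals that included 0. Scaling to library size turned its change for tumor with exercise to −0.41, for exercise with tumor to −0.43 and for tumor without exercise to −0.11.

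Ripk3, the kinase that phosphorylates MLKL, had 4 reads in the normal control, 16 in normal exercise, 22 in the cancer control and 15 in cancer exercise. The normal control was the lowest, and the 3 other libraries did not differ beyond counting error. The change was 1.42 (0.03 to 3.70) with exercise in normal mice and 1.83 (0.52 to 4.08) with tumor without exercise. Both rest on the 4 reads of the normal control, and the first was not called when 16 normalized reads were required. Mlkl, whose protein breaks the membrane, had 15, 17, 23 and 12 reads in the same order of libraries, and no change of it was beyond counting error. Its lowest interval, for exercise with tumor, ran from −1.77 to 0.44, so that a 2-fold lower level was within counting error at this depth.

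**Figure D2:**
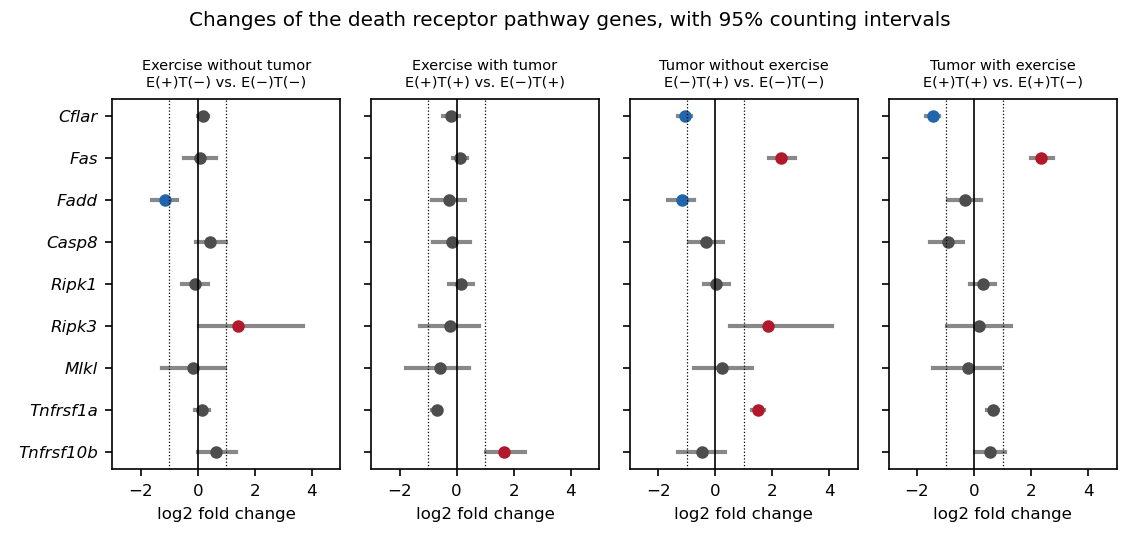
Log2 fold changes of the 9 genes in the 4 comparisons, with 95% counting intervals as grey bars and dotted lines at 2-fold. Red points were called higher and blue points lower, and grey points were not called. Fas is called higher and Cflar lower in both tumor comparisons, at 2.30 and −1.08 without exercise and 2.35 and −1.45 with exercise.

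Counted over the 9 genes, tumor without exercise was the comparison with the most calls. There 3 genes (Fas, Ripk3 and Tnfrsf1a) were at least 2-fold higher and 2 (Cflar and Fadd) at least 2-fold lower, against 14.6% and 13.1% of the 14317 genes tested. The interval left out 0 for 5 of the 9, against 56.0% of the genes tested, so that by this count the 9 genes were close to the background. Their median change was 0.04, and that of all genes −0.01.

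For tumor with exercise, 1 gene (Fas) was called higher and 1 (Cflar) lower, where 12.0% and 11.1% of 14289 genes were. The intervals of 5 genes left out 0, against 52.5% of all genes tested, and the median change was 0.17. Exercise in normal mice gave 1 gene higher (Ripk3) and 1 lower (Fadd), with a background of 5.88% and 6.40% of 13937 genes. Its intervals left out 0 for 3 genes, against 31.9%, and the median was 0.14. Exercise in cancer-bearing mice gave 1 gene higher (Tnfrsf10b) and 0 lower, where 9.39% and 10.0% of 14363 genes were, and 2 intervals left out 0, against 46.8%. The median there was −0.19.

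The share of receptor to Cflar reads within a library does not depend on scaling between libraries. These ratios were chosen after the values were seen, and they are ratios of reads and not of proteins. Per Cflar read, there were 0.113 Fas reads in the normal control (95% interval 0.083 to 0.152) and 0.106 in normal exercise (0.081 to 0.136). With tumor the ratio was 1.20 in the cancer control (1.02 to 1.41) and 1.5 in cancer exercise (1.24 to 1.81). Fas thus went from fewer reads than Cflar without tumor to more reads than Cflar with tumor.

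As a ratio of these ratios, Fas per Cflar was 10.6 times higher with tumor without exercise (conditional exact 95% interval 7.51 to 15.1) and 14.1 times higher with exercise (10.3 to 19.6). Tnfrsf1a per Cflar was 0.610 in the normal control, 0.596 in normal exercise, 3.64 in the cancer control and 2.58 in cancer exercise. The corresponding differences with tumor were 5.96 times (4.85 to 7.35) without exercise and 4.32 times (3.49 to 5.37) with exercise. Both libraries with tumor were above 1 for either receptor, and both without tumor below 1.

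Exercise in cancer-bearing mice multiplied Tnfrsf1a per Cflar by 0.707 (0.568 to 0.882), and it multiplied Fas per Cflar by 1.25 (0.971 to 1.61), an interval that included 1. Casp8 per Cflar was 0.113 in the normal control, 0.136 in normal exercise, 0.192 in the cancer control and 0.194 in cancer exercise. It was 1.69 times higher with tumor without exercise (1.09 to 2.62), and with exercise the 1.43 times had an interval that included 1 (0.911 to 2.20). Tnfrsf10b per Cflar stood at 0.066, 0.092, 0.0996 and 0.372 in the same order of libraries, and was 3.72 times higher (2.26 to 6.27) with exercise in cancer-bearing mice. Here cancer exercise lay above the 3 other libraries. Fas per Fadd was 0.417, 0.985, 4.78 and 6.36.

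**Figure D3:**
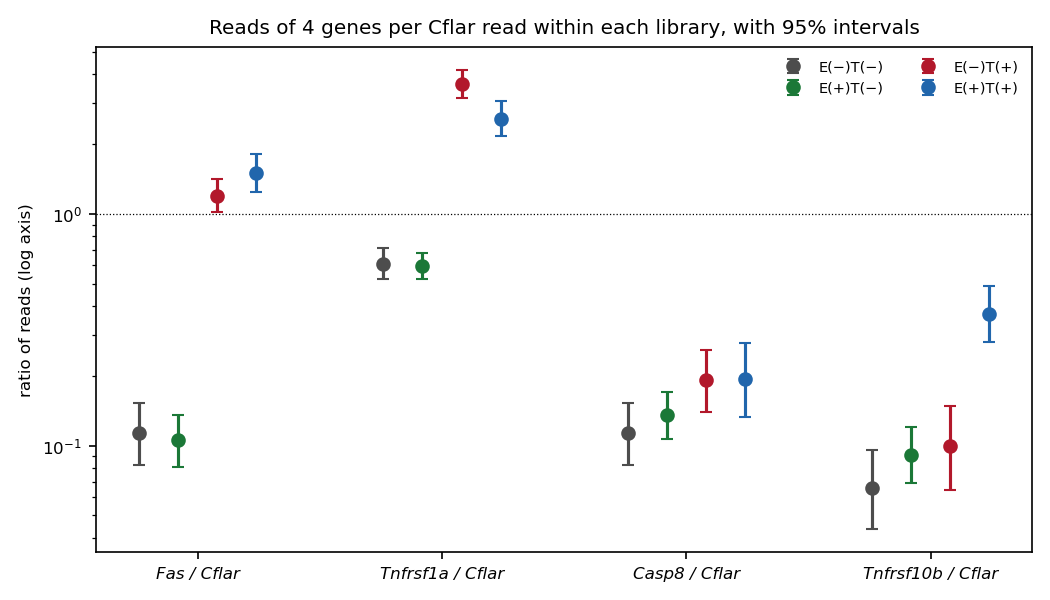
Reads of Fas, Tnfrsf1a, Casp8 and Tnfrsf10b per Cflar read within each of the 4 libraries, on a log axis, with 95% Clopper-Pearson intervals and a dotted line at a ratio of 1. Fas and Tnfrsf1a lie above 1 in the libraries with tumor (1.20 and 1.5 for Fas, 3.64 and 2.58 for Tnfrsf1a) and below 1 in those without.

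The genes whose levels moved most like those of Cflar over the 4 libraries were Lama4, Marf1, Atxn1, Kctd2 and Cstf2t. Likeness was the root mean square distance between log2 values centred over the libraries, among the 7076 genes whose normalized reads averaged 100 or more. The distance was 0.049 for Lama4, a laminin chain of vessel and muscle basement membranes, and 0.078 for Cstf2t, the fifth in order. Lama4 had log2 values of 8.88, 9.04, 7.73 and 7.49 in the normal control, normal exercise, the cancer control and cancer exercise. The likeness rests on 4 libraries, and no test was made of it.

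On the genome (GRCm38, the build the study's mm10 names, with GENCODE M21), Cflar lies at chr1:58711508-58758884 on the plus strand. Casp8 follows it on the same strand at chr1:58795374-58847503, starting 36.5 kb after the end of Cflar, and the pair share an origin by duplication. With tumor without exercise, the changes of the 2 neighbours were −1.08 for Cflar and −0.32 for Casp8, and the ratio of their reads differed beyond counting error, as given above. With tumor in exercised mice, the changes were −1.45 and −0.93, and the change of the ratio had an interval that included 1 (0.911 to 2.20). Fas lies at chr19:34290666-34327772 and Tnfrsf1a at chr6:125349362-125362484, both on the plus strand. Tnfrsf10b lies at chr14:69767472-69784411 (plus), Fadd at chr7:144577318-144582463 (minus), Ripk1 at chr13:34002363-34037147 (plus), Ripk3 at chr14:55784995-55788865 (minus) and Mlkl at chr8:111311797-111338177 (minus). QuantSeq reads come from the 3′ end of a transcript. Coding transcripts of Cflar have 4 different ends and those of Fas 3. The values are given per gene symbol and not per transcript, so that the long and short forms of cFLIP were not told apart here.

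Promoters were looked at because Fas and Tnfrsf1a were both higher with tumor without exercise. In the RefSeq promoter table of this build, 8 of the 9 genes had a promoter, and Tnfrsf10b had none. The 250 bases before each RefSeq start were searched on both strands for 13 motifs, over 32851 promoters. The STAT motif TTCNNNGAA was in 3 of the genes, Fas, Tnfrsf1a and Ripk1, and in 7.02% of all promoters. The 2 receptors that were higher with tumor without exercise both hold it. Ripk1, which was not higher there, holds it as well, and Ripk3, which was called higher there (1.83), does not. The motif was picked for display after the changes were seen, and its part in them was not tested. Its matches are given here with up to 10 bases on either side, the motif in capitals.
Fas, chr19:34290556-34290584, plus strand: tcaaagcgatTTCTGGGAAgacctgaata
Tnfrsf1a, chr6:125349473-125349497, plus strand: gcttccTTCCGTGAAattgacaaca
Ripk1, chr13:34002756-34002784, plus strand: agaagctggtTTCCCGGAAggggcggagg
Ripk1, chr13:34002853-34002873, plus strand: acttcaaacgTTCCCGGAAat
The motif began 93 bases before the start of Fas, 244 before that of Tnfrsf1a, and 108 and 11 before that of Ripk1. The Tnfrsf1a match lies inside the longer span that GENCODE gives the gene, and those of Ripk1 lie inside its own GENCODE span, the first of them also in Serpinb6a on the other strand.

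Of the other motifs, the NF-kB motif was in 0 of the 9 promoters of these 8 genes and in 7.25% of all promoters. The GC box GGGCGG was in Fadd, Fas, Ripk1 and Ripk3, against 32.7% of promoters, the E-box CACGTG was in Fas and Ripk3, against 6.02%, and AP-1 (TGACTCA or TGAGTCA) was in Fas, against 4.46%. Cflar held TATAAA (12.4%) and the C/EBP motif TTGCNNAA (9.56%), Casp8 held CCAAT (33.8%) and Ripk1 the CRE core TGACG (17.8%). None of the 9 promoters held the ISRE GAAANNGAAA (2.98%), the CRE TGACGTCA, which contains the CRE core (1.55%), the GRE AGAACANNNTGT (0.368%) or the SRE (1.47%). These are matches of letters and not sites of binding.

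Outside the 9 genes, 110 genes of a list of the wider pathway were in the data. Of 102 tested for tumor without exercise, 19 were at least 2-fold higher and 8 lower (18.6% and 7.84%, against 14.6% and 13.1% of all genes). For tumor with exercise, 13 of 101 were higher and 15 lower (12.9% and 14.9%, against 12.0% and 11.1%). Exercise gave 4 higher and 8 lower of 101 in normal mice (3.96% and 7.92%, against 5.88% and 6.40%), and 3 higher and 15 lower of 100 in cancer-bearing mice, the latter 3% and 15.0% against 9.39% and 10.0% of all genes. The median changes were −0.05 and −0.19 for exercise without and with tumor, and 0.01 and −0.02 for tumor without and with exercise.

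The counts for the single lists that follow are to be set beside the shares of all genes called, 14.6% higher and 13.1% lower for tumor without exercise and 9.39% and 10.0% for exercise with tumor. The ligands were few. Of 8 ligand genes, 3 could be tested in any 1 comparison, and Fasl, the ligand of Fas, had 3 reads in the normal control, 0 in normal exercise, 0 in the cancer control and 1 in cancer exercise. Tnf had 2, 2, 3 and 0 reads, so that differences of either ligand were not detectable at this depth. Tnfsf10, which encodes TRAIL, the ligand of Tnfrsf10b, had 72, 26, 32 and 20 reads in the same order. It was highest in the normal control, with −1.77 (−2.52 to −1.15) when normal mice exercised and −1.51 (−2.20 to −0.93) for tumor without exercise.

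Among the other TNF receptor genes, Tnfrsf12a, the receptor of TWEAK, was lowest in the normal control, with 35, 158, 267 and 110 reads. Its change was 1.80 (1.30 to 2.40) with exercise in normal mice, −0.96 (−1.30 to −0.64) with exercise in cancer-bearing mice, and 2.52 (2.04 to 3.11) with tumor without exercise. Tnfrsf1b, TNF receptor 2, had 74, 156, 188 and 71 reads, and its change with exercise in cancer-bearing mice was −1.08 (−1.51 to −0.69). Tnfrsf21 was at most 2.02-fold lower (−1.01 for tumor with exercise, and −0.68 with reads subsampled), and Tnfrsf26 had at most 24 reads in a library. In the list of 10 genes, 2 were higher and 1 lower of 8 tested with tumor without exercise, and 0 higher and 2 lower of 7 with exercise in cancer-bearing mice.

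The adaptors and ubiquitin enzymes of the receptor complexes had 3 genes higher and 0 lower of 24 with tumor without exercise, where the 12.5% higher is near the 14.6% of all genes and 13.1% of all genes were lower. With exercise in cancer-bearing mice, 0 were higher and 4 (16.7%) lower, against 9.39% and 10.0% of all genes. Tnfaip3 (A20, which removes ubiquitin chains from RIPK1) had 2, 6, 27 and 20 reads and a change of 2.84 (1.38 to 6.49) with tumor without exercise. Traf3, Traf5 and Traf1 were lower in cancer exercise. Traf3 had 113, 165, 161 and 49 reads, a change of −1.39 (−1.90 to −0.94) with exercise in cancer-bearing mice, Traf5 fell by 1.33 and Traf1 by 1.57 on the log2 scale, the last on 2 reads against 10 with an interval that included 0 (−5.24 to 0.22), and by 0.84 with reads subsampled.

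In the NF-kB list, Nfkbia, the inhibitor that NF-kB itself induces, had 1539 and 2548 reads without tumor and 6427 and 6105 with tumor. The changes were 1.68 (1.60 to 1.77) without exercise and 1.53 (1.47 to 1.60) with exercise, the latter 0.81 under library size scaling. Rel had 15, 24, 19 and 52 reads and was 1.71 higher (0.98 to 2.60) with exercise in cancer-bearing mice. Relb, with 136, 176, 150 and 48 reads, changed by −1.31 (−1.83 to −0.86) there, and Nfkbie by −1.48. Of 11 genes, 1 was called higher and 0 lower with tumor without exercise, and 1 higher and 2 lower with exercise in cancer-bearing mice.

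Of 12 genes in the caspase and nuclease list, which also holds Apaf1 and Parp1, 3 were higher and 1 lower with tumor without exercise. The lower gene was Parp1 (−1.05). The 3 higher were Casp1 (1.34), Casp4 (1.24) and Casp12 (1.11, or 0.96 under library size scaling). These are inflammatory caspases, which do not act in death receptor apoptosis, and the median of the list was −0.44. Casp12 had 127, 121, 358 and 202 reads, and its change of 1.01 for tumor with exercise was 0.29 under library size scaling. Apaf1, the apoptosome scaffold, changed by −1.19 (−2.47 to −0.20) with exercise in cancer-bearing mice, and by −0.63 with reads subsampled to the smallest library.

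The list of the mitochondrial BCL2 family, which also holds Cycs, Diablo and Htra2, had 8 genes higher and 2 lower of 21 with tumor without exercise, with a median of 0.33. These are 38.1% and 9.52%, against 14.6% and 13.1% of all genes. The 8 include Bax (2.03), Bcl2l1 (1.48) and both Bcl2a1a (1.64) and Bcl2a1b, and Bcl2 was among the 2 lower (−1.24). Members that promote and members that inhibit apoptosis are thus counted together. With exercise in cancer-bearing mice, 0 were higher and 3 (14.3%) lower, against 9.39% and 10.0% of all genes, with a median of −0.42. Bid, which caspase-8 cleaves to link death receptors with mitochondria, had 12, 16, 41 and 3 reads. It was higher with tumor without exercise, at 1.34 (0.44 to 2.46, and 0.84 with reads subsampled), and lower with exercise in cancer-bearing mice, at −3.09 (−5.80 to −1.81). Pmaip1 (NOXA) had 1, 4, 26 and 12 reads, with 3.38 (1.72 to 9.68) for tumor without exercise. Bmf had 19, 16, 31 and 1 reads, and cancer exercise was the lowest, with −3.68 (−9.99 to −2.06) against the cancer control. Bcl2a1b was 2.13 higher (1.23 to 3.46) with tumor without exercise, but it has near-identical copies among which the counting could have divided reads.

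Among the partners of necroptosis and lytic death, Ninj1, which ruptures the membrane of dying cells, had 249, 377, 986 and 766 reads. It was higher with tumor, by 1.60 (1.41 to 1.81) without exercise and 1.29 (1.12 to 1.48) with exercise, and both libraries with tumor lay above both without. The second of these was 0.58 under library size scaling. Ticam1 (TRIF), which recruits RIPK3 downstream of Toll-like receptors, had 55, 85, 61 and 19 reads and changed by −1.32 (−2.20 to −0.61) with exercise in cancer-bearing mice. Zbp1 had at most 21 reads, with −1.43 (−3.23 to −0.09) when normal mice exercised and 1.55 (0.26 to 3.33) for tumor with exercise, the latter 0.87 under library size scaling. The list had 1 gene higher and 1 lower of 9 with tumor without exercise.

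The modulators of death receptors had 1 gene higher and 1 lower of 14 with tumor without exercise. Pea15a, a death effector domain protein that binds FADD, had 1934 and 2951 reads without tumor and 1270 and 1127 with tumor, and its changes with tumor were −0.98 (−1.09 to −0.88) without exercise and −1.11 (−1.22 to −1.02) with exercise. Both libraries with tumor thus lay below both without, as for Cflar. Tmbim1, which lowers Fas at the surface, had 283, 324, 766 and 274 reads and was 1.06 higher (0.86 to 1.26, and 0.90 under library size scaling) with tumor without exercise while its change was −1.17 (−1.38 to −0.97) with exercise in cancer-bearing mice. With exercise in cancer-bearing mice, Dapk1 changed by −1.21 and Dapk2 by 1.38, the latter 0.80 under library size scaling.

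**Figure D4:**
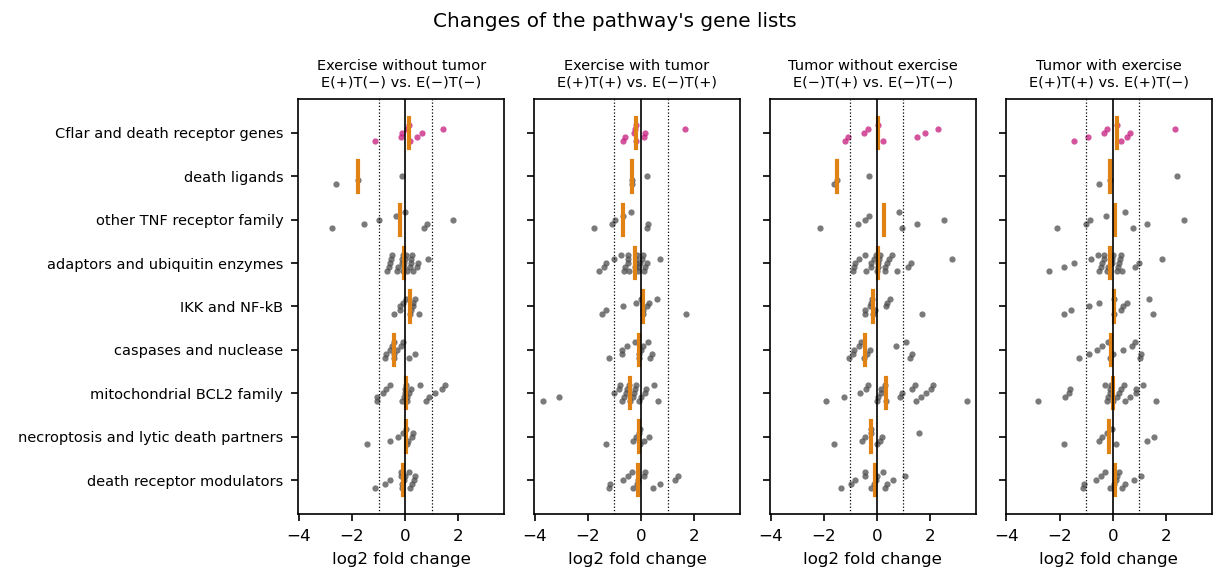
Log2 fold changes of the tested genes of each list in the 4 comparisons, 1 point per gene, with Cflar and the death receptor genes in pink, medians as orange bars and dotted lines at 2-fold. The BCL2 family list, with Cycs, Diablo and Htra2, has a median of 0.33 for tumor without exercise and −0.42 for exercise with tumor.

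Markers of other cells moved with some of these values. Leukocyte markers were called higher for 6 and lower for 2 of 12 with tumor without exercise (50% and 16.7%, against 14.6% and 13.1% of all genes). With tumor with exercise, 3 were higher and 2 lower of 11 tested (27.3% and 18.2%, against 12.0% and 11.1%). S100a8, a neutrophil gene, had log2 values of 5.56 and 5.14 without tumor and 10.38 and 11.44 with tumor, with both libraries with tumor above both without, as for Fas. The macrophage genes of the list did not move together. Cd68 had log2 values of 6.50, 6.46, 8.36 and 6.71 and was highest in the cancer control, as Tnfrsf1a was. Lyz2, at 8.68, 9.38, 10.12 and 8.555, and Itgam, at 4.37, 4.76, 7.23 and 5.59, were highest there as well. Adgre1 had 5.87, 6.61, 5.49 and 5.30 and Csf1r 9.97, 9.95, 9.86 and 9.27, both lowest in cancer exercise. Cd14, of the same list, had 6.37, 7.24, 8.02 and 9.385 and was highest in cancer exercise. Of the other leukocyte markers, Ptprc had 6.535, 6.045, 6.76 and 6.73, and Cd74 had 9.115, 9.35, 6.14 and 7.51. The 4 fibroblast markers summed to 23435.5, 27344.3, 49521.7 and 30971 normalized reads in the same order, also highest in the cancer control. Dcn alone made up 20423, 22489, 40453 and 29409 of these, so the sums say little about the other fibroblast markers. With tumor in exercised mice, Dcn changed by 0.39, and Col1a1, Col1a2 and Pdgfra by −2.03, −1.69 and −0.11.

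The endothelial markers Kdr and Cdh5 were lower with tumor without exercise, with changes of −1.89 and −1.26, as Cflar and Lama4 were, and Tie1 changed by −0.58. Pecam1, an endothelial marker as well, changed by 0.55. With tumor in exercised mice, the changes of Kdr, Cdh5, Tie1 and Pecam1 were −0.82, −0.01, −0.50 and 0.90.

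The adipocyte markers summed to 22098, 15581, 13540 and 21638 normalized reads, of which Fabp4 alone made up 20072, 15054.5, 13105.5 and 19056. The sums thus say little about the other markers of the list. Lep was at 0 in all libraries but the normal control, and Plin1 was at 0 in the cancer control. For exercise in normal mice, 6 of 7 adipocyte markers were called lower, against 6.40% of all genes, with a median change of −1.98. For tumor without exercise, 6 of 7 were called lower, against 13.1% of all genes, with a median of −3.29. In both of these comparisons Fadd and Tnfsf10 were called lower, and Ripk3 was called higher. Both comparisons share the normal control library, so they are not independent of each other. The markers and these genes did not go together throughout. For tumor with exercise, 4 of 6 tested markers were called higher, against 12.0% of all genes, with a median of 2.16. There Fadd changed by −0.31 and Tnfsf10 by −0.09. With exercise in cancer-bearing mice, where Tnfrsf10b was called higher, 5 of 6 tested markers were called higher, against 9.39% of all genes, and the median was 2.76. With exercise in normal mice, where most of the markers were called lower, Tnfrsf10b changed by 0.64. The part of any of these cells in the levels of the genes described was not tested.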

How the data were processed

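The heart mRNA-seq data of 4 groups, 1 library each, were used. According to the labels and the study's methods, the authors made QuantSeq libraries, aligned reads with Bowtie2 to mm10, counted them with bedtools and normalized them by a quantile method of edgeR, and versions are not given in the sources used here. What the authors deposited is the log2 of each normalized read count plus 1. Whole reads were recovered from them with a fitted size for each library and 1 dispersion for all (0.149), and every value was given back within 0.000527. The recovery was tested on simulated data.

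Changes are differences of deposited values, and no test was made, since 1 library per group gives no replicates. The members and gene lists were chosen with earlier results of these data known. Beside the 9 members, the text names up to 4 genes per list that passed 2-fold in a comparison and reached 16 normalized reads, by the largest change, and the 5 genes most like Cflar. Fasl, Tnf, Parp1, Bax, Bcl2l1, Bcl2a1a, Bcl2 and the markers were named after their values were seen. Alternatives covered 3 scalings, the minimum, the pseudocount, depth and the fold. The tools were scipy 1.17.1, numpy 2.4.6 and pandas 2.3.3 in Python 3.11.15.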

Additional observations from a re-analysis of the deposited data

Results flagged for a closer look

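Tnfrsf12a and Tnfrsf1b had changes with exercise of opposite sign in normal and in cancer-bearing mice, each with a counting interval that left out 0. The change of Tnfrsf12a was 1.80 in E(+)T(−) vs. E(−)T(−) and −0.96 in E(+)T(+) vs. E(−)T(+). The change of Tnfrsf1b was 0.73 and −1.08 in the same comparisons. With reads scaled to library size, the changes in cancer-bearing mice were −1.54 and −1.66. The difference between normal and cancer-bearing mice was not tested, since each group had 1 library.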

How the results depend on the processing

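Of 72 values for the counts of the 9 genes past 2-fold, the changes of Cflar and the medians of the 9 genes under 8 alternatives to the processing and the threshold, 63 stayed within the limits of counting error or 1.5 times the count, and 9 moved. With reads scaled to library size, 3 genes in place of 1 passed 2-fold for exercise with tumor (Tnfrsf10b higher, Mlkl and Tnfrsf1a lower) and 4 in place of 2 for tumor with exercise (Fas higher, Cflar, Fadd and Casp8 lower). Under the same scaling, Cflar changed by −0.78 for exercise with tumor and by −2.17 for tumor with exercise, and the median of the 9 genes for exercise with tumor was −0.78. With reads subsampled to the smallest library, 2 genes passed for exercise with tumor, Mlkl being the added one. A minimum of 16 normalized reads left 1 gene for exercise without tumor, and a fold threshold of 1.5 gave 3 genes for exercise with tumor and 4 for tumor with exercise. Of 720 values for single genes, 680 stayed within these limits and 40 moved, and no called change turned its sign under any alternative.

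The genes called for tumor without exercise, Fas, Ripk3 and Tnfrsf1a higher and Cflar and Fadd lower, were the same 5 under the 3 scalings, the pseudocount of 4 and the subsampling. No paired analysis was possible because each group had 1 library, and leaving out a replicate could not be done for the same reason. Depth limits Ripk3 and Mlkl, with 4 to 23 reads, and the ligands.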
